A study of Mus musculus with 6 samples.

Results

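A set of 10 genes of the ERK pathway's own output and feedback was followed in C2C12 cells, a mouse myoblast line, after small interfering RNA (siRNA) against Htt, the mouse huntingtin gene. They are the dual-specificity phosphatases Dusp4, Dusp5 and Dusp6, the Sprouty genes Spry1, Spry2 and Spry4, the Spred genes Spred1 and Spred2, and the ETS transcription factors Etv4 and Etv5. The genes were chosen by name, with earlier results of these data known, as transcripts that ERK signalling induces and that mostly act back on it. All 10 were measured, among 22180 genes on the array, each by the brightest of its probe sets with 1 gene symbol (a probe set is several probes that are read out together). According to its title, the study concerns a role of huntingtin in the differentiation of muscle cells. It has 3 arrays of C2C12 cells transfected with an siRNA pool against Htt, labelled HTT KO, and 3 of C2C12 cells transfected with scramble siRNA, labelled control. Both groups grew in standard medium, and the labels give neither the time after transfection nor the stage of the culture at harvest. Although the labels of the first group speak of a knockout, the protocol describes transfected siRNA, so it is called Htt siRNA here. Nothing in the labels says that replicates were separate cultures, so each p-value measures only the spread between these arrays, which may be technical.

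ERK is the last kinase of the cascade by which growth factor receptors act through RAS, RAF and MEK. In myoblasts, growth factor signalling through ERK is known to favour proliferation and to restrain the start of terminal differentiation. The cascade induces its own inhibitors, and their transcripts are widely used as a readout of ERK output. DUSP6 removes phosphate from ERK in the cytoplasm, DUSP5 does so in the nucleus, and DUSP4 is a nuclear phosphatase of ERK and related kinases. Sprouty proteins act between the receptor and RAF, Spred proteins bring neurofibromin, a RAS inactivator, to the membrane, and ETV4 and ETV5 are transcription factors induced by fibroblast growth factor signalling.

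Values are the deposited log2 values made by RMA, a method that corrects background, makes the arrays' distributions alike and summarises probes. Differences are Htt siRNA minus scramble on this log2 scale, with the standard error (SE) from limma, fitted to all 22180 genes. Adjusted p-values are limma's (Benjamini-Hochberg), taken over the whole table, and count as passed below 0.05. RMA compresses weak signals, so a fold is likely to be understated for dim probe sets. Htt itself was lower in every Htt siRNA array, at 4.49, 4.47 and 4.65, against 5.59, 5.60 and 5.72 in scramble arrays. Its mean was 46.6% of that in scramble arrays (95% confidence interval 40.2 to 53.9%; adjusted p = 0.0559 in limma). In limma 0 of 22180 genes passed the threshold in either direction (0.0%), while 2409 had an unadjusted p under 0.05. Of the myoblast markers, 9 of 10 lay above the median gene level, as did 6 of 10 fibroblast, 3 of 7 neuron and Schwann cell, 2 of 7 adipocyte, 2 of 8 macrophage and 0 of 8 endothelial markers. In lists of S phase and stress response genes, Htt siRNA replicate 2 stood apart from replicates 1 and 3, and scramble replicate 1 from scramble replicates 2 and 3. Results that rest on these arrays are therefore also given without them.

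The means of the phosphatase genes were lower after Htt siRNA, for Dusp6 with overlapping groups, and none passed the threshold over all genes. Of the 10 feedback genes, 3 were lower at an unadjusted p under 0.05 (Dusp4, Dusp5 and Etv4), against 5.14% of all genes, and 0 were higher, against 5.72%. In 2 of the 10, Dusp4 and Dusp5, all Htt siRNA arrays lay below all scramble arrays, against 5.91% of all genes, and in 0 did they all lie above, against 10.1%. The median difference over the 10 genes was -0.26, beside 0.03 over all genes tested, and 7 of the 10 differences were negative, against 41.8% of all genes.

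Dusp4 stood at 6.58, 7.15 and 6.71 in Htt siRNA arrays 1, 2 and 3, against 7.16, 7.47 and 7.61 in scramble arrays 1, 2 and 3. The groups did not overlap, but Htt siRNA replicate 2 lay just below scramble replicate 1. The mean was 6.81 ± 0.30 with Htt siRNA and 7.42 ± 0.23 with scramble (SD, n = 3 each), a difference of -0.60 ± 0.17 (SE), or 65.9% of the scramble level (95% confidence interval 49.8 to 87.1%; adjusted p = 0.362 in limma). Without Htt siRNA replicate 2, the highest array of its group, the difference was -0.77 ± 0.15 and limma's adjusted p was 0.0453. Without Htt siRNA replicate 1 it was -0.48 ± 0.18 with an adjusted p of 0.632 in limma. Leaving out any other single array did not give a pass either.

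Dusp5, the nuclear phosphatase of ERK, had the smallest p of the 10 genes. It stood at 5.32, 5.70 and 5.59 in Htt siRNA arrays, against 5.88, 6.43 and 6.22 in scramble arrays. All Htt siRNA arrays were below all scramble arrays, and here replicate 2 lay closest to replicate 3 of its own group. The mean was 5.53 ± 0.19 with Htt siRNA and 6.18 ± 0.28 with scramble (SD, n = 3 each), a difference of -0.64 ± 0.16 (SE), or 64.1% of the scramble level (95% confidence interval 49.6 to 82.8%; adjusted p = 0.311 in limma). Leaving out 1 array at a time gave differences from -0.79 to -0.52, all below 0. For Dusp4 and Dusp5 the exact two-sided permutation test over arrays gave p = 0.1, the smallest that 3 against 3 arrays allow.

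Dusp6, the cytoplasmic phosphatase most used as an ERK readout, had the most negative difference and the widest spread of the 10 genes. It stood at 5.80, 7.22 and 6.26 in Htt siRNA arrays, against 6.60, 7.72 and 7.56 in scramble arrays. The groups overlapped: replicate 2 of Htt siRNA lay above scramble replicate 1. As shares of the scramble mean, Htt siRNA replicates 1 and 3 held 35.5% and 48.7%, and replicate 2 held 94.8%. The mean was 6.43 ± 0.72 with Htt siRNA and 7.30 ± 0.60 with scramble (SD, n = 3 each), a difference of -0.87 ± 0.40 (SE; 95% confidence interval -1.80 to 0.06; adjusted p = 0.482 in limma). Leaving out Htt siRNA replicate 2 gave -1.27 ± 0.32 (adjusted p = 0.109) and leaving out scramble replicate 1 gave -1.22 ± 0.37 (adjusted p = 0.454), while without Htt siRNA replicate 1 the difference was -0.56. The other, dim Dusp6 probe set, with values from 1.75 to 2.24, differed by -0.22 ± 0.12.

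**Figure D1:**
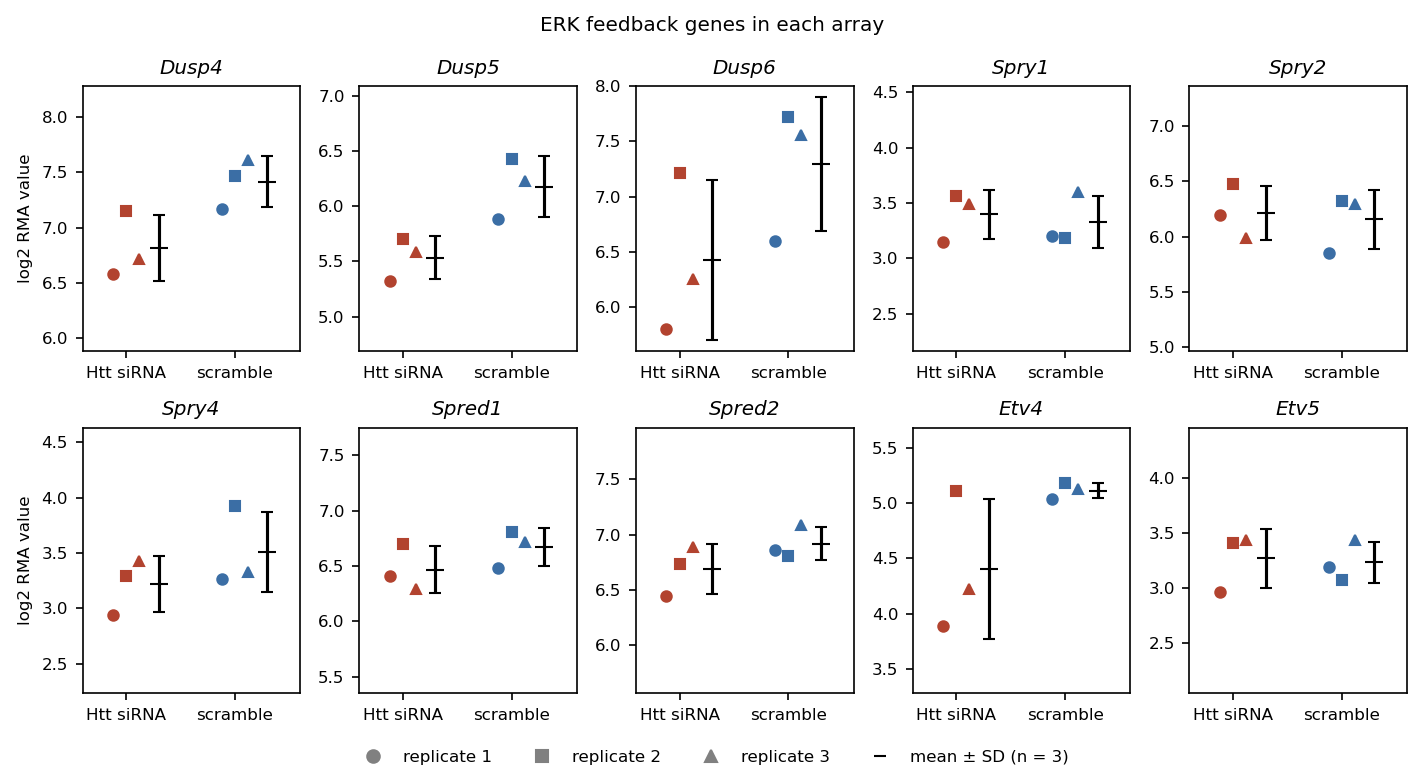
Log2 RMA values of the 10 ERK feedback genes (vertical axis; every panel spans the same number of log2 units) in the Htt siRNA arrays (left) and scramble arrays (right), with symbols for replicates 1 to 3 and bars for the mean ± SD. Dusp4 and Dusp5 show no overlap between groups, and Dusp6 and Etv4 show Htt siRNA replicate 2 at 7.22 and 5.11, among or beside the scramble arrays.

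The stretches upstream of the phosphatase genes with a promoter entry in RefSeq (build GRCm38.p6) are shown because Dusp5 had the smallest p and Dusp6 the most negative difference, with Spry2, whose difference was close to 0, beside them. Dusp4 and Etv4 are named only. Each is the 250 bases before the annotated start, 5′ to 3′ on the gene's strand. Capitals mark matches, on either strand, to the ETS core GGAA (TTCC on the opposite strand) and to the CArG box that serum response factor binds.
Dusp5, chr19:53528895-53529144, plus strand: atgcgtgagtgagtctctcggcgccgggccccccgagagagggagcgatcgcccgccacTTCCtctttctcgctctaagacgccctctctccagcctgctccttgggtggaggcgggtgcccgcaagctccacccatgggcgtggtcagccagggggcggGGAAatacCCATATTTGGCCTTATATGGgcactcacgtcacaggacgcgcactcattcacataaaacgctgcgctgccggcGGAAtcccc
Dusp6, chr10:99262981-99263230, plus strand: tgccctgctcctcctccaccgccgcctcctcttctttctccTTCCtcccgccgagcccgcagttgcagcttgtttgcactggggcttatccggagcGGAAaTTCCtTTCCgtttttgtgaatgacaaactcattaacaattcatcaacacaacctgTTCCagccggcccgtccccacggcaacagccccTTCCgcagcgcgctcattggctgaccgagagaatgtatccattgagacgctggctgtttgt
Spry2, chr14:105896820-105897069, minus strand: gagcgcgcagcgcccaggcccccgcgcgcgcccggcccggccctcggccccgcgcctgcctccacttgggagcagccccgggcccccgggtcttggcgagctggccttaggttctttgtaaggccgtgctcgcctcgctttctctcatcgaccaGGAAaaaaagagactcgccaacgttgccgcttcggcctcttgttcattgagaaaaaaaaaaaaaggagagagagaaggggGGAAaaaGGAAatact

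The Dusp5 stretch held 2 CArG boxes side by side, 82 and 72 bases before the start, and 3 ETS cores. Of 32851 RefSeq windows of this length, 1.47% held a CArG box and 0.0183% held 2 or more. The Dusp6 stretch held 6 ETS cores, a count that 8.69% of windows reached. Spry2, like Dusp5, held 3, which 54.7% reached, and 93.4% of windows held at least 1. The most ETS cores among the feedback genes, 7, were upstream of Spred2, whose difference was -0.23, a count that 3.82% of windows reached. Windows of 7 of the 10 genes were searched, and the other genes are not covered here. None of them held CCGGAAGT, a longer ETS motif that contains the core (2.88% of all windows), TGANTCA, the AP-1 motif (6.75%), or TGACGTCA, the cyclic AMP response element (1.55%), on either strand. These are letter matches only and show no binding.

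The Sprouty genes showed no common direction. Spry1, which mouse muscle stem cells need to return to quiescence, stood at 3.14, 3.56 and 3.49 in Htt siRNA arrays, against 3.20, 3.18 and 3.60 in scramble arrays, and the groups lay across each other. Its difference was 0.07 ± 0.15 (SE; 95% confidence interval -0.29 to 0.42; adjusted p = 0.902 in limma). Spry2, a widely expressed Sprouty, stood at 6.19, 6.47 and 5.99 in Htt siRNA arrays, against 5.85, 6.32 and 6.30 in scramble arrays. The highest and the lowest of the 6 values were Htt siRNA replicate 2 and scramble replicate 1. The difference of Spry2 was 0.06 ± 0.17 (95% confidence interval -0.33 to 0.45; adjusted p = 0.919 in limma), so the interval leaves room for 79.7 to 137% of the scramble level.

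Spry4 stood at 2.94, 3.29 and 3.43 in Htt siRNA arrays, against 3.26, 3.92 and 3.33 in scramble arrays. The groups overlapped, with Htt siRNA replicate 1 the lowest and scramble replicate 2 the highest. The difference of -0.29 ± 0.20 (adjusted p = 0.637 in limma) was -0.15 when the lowest array was left out and -0.08 when the highest was. With 6-array means of 3.36 for Spry1 and for Spry4, both probe sets lay close to the median gene mean of 2.95, where differences are compressed, whereas Spry2 averaged 6.19.

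Both Spred genes had small negative differences that did not exceed the spread between arrays. Spred1 stood at 6.41, 6.70 and 6.29 in Htt siRNA arrays, against 6.48, 6.81 and 6.72 in scramble arrays, a difference of -0.20 ± 0.14 (SE; adjusted p = 0.623 in limma). Spred2 stood at 6.44, 6.74 and 6.89 in Htt siRNA arrays, against 6.86, 6.80 and 7.09 in scramble arrays, a difference of -0.23 ± 0.14 (adjusted p = 0.577 in limma). Replicate 2 of Htt siRNA was the highest of its group for Spred1 and lay between the others for Spred2. The 95% confidence intervals reached down to 69.7% of the scramble level for Spred1 and 68.5% for Spred2, and up to 108% and 106%.

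The ETS factors differed from each other in value and in brightness. Etv4 stood at 3.88, 5.11 and 4.23 in Htt siRNA arrays, against 5.04, 5.18 and 5.12 in scramble arrays. Scramble arrays agreed within 0.14, whereas Htt siRNA arrays spanned 1.23, with replicates 1 and 3 at 42.7% and 54.1% of the scramble mean and replicate 2 at 99.8%. The mean was 4.41 ± 0.63 with Htt siRNA and 5.11 ± 0.07 with scramble (SD, n = 3 each), a difference of -0.71 ± 0.28 (SE; 95% confidence interval -1.34 to -0.07; adjusted p = 0.43 in limma). Without Htt siRNA replicate 2 the difference was -1.06 ± 0.13 with an adjusted p of 0.0109 in limma, and without Htt siRNA replicate 1 it was -0.44.

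Etv5, the closest relative of Etv4 among the 10 genes, was dim on both of its probe sets. The brighter stood at 2.96, 3.41 and 3.43 in Htt siRNA arrays, against 3.19, 3.07 and 3.43 in scramble arrays, a difference of 0.04 ± 0.15 (SE; adjusted p = 0.952 in limma). The dimmer stood at 2.54, 2.61 and 2.69 in Htt siRNA arrays, against 3.10, 2.88 and 2.79 in scramble arrays, with no overlap and a difference of -0.31 ± 0.11 (adjusted p = 0.504 in limma over 41345 probe sets). The probe sets of Etv5 thus disagreed in direction, and no direction is given for the gene.

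**Figure D2:**
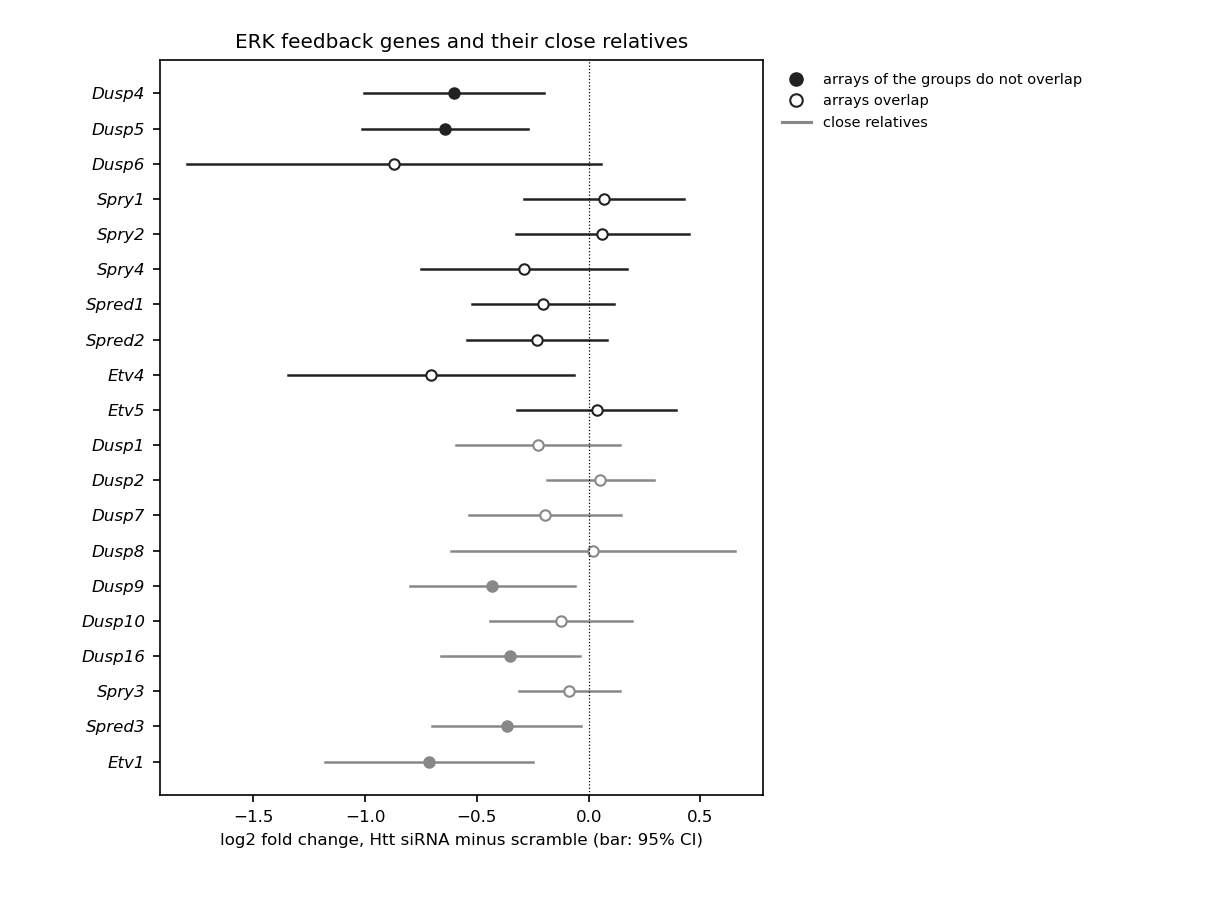
Log2 fold changes, Htt siRNA minus scramble, with 95% confidence intervals from limma, for the 10 feedback genes (black) and 10 close relatives (grey), where filled points mark genes whose groups do not overlap. Dusp4, Dusp5, Dusp6, Etv4 and Etv1 lie between -0.60 and -0.87, while Spry1, Spry2 and Etv5 lie within 0.07 of 0.

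Single arrays often held the same place from gene to gene. Relative to each gene's 6-array mean, Htt siRNA replicate 1 was the lowest of all 6 arrays for 8 of the 10 genes, and a scramble array was the highest for 8 of the 10. Replicate 2 was the highest Htt siRNA array for 7 of the 10 genes, and replicate 1 the lowest scramble array for 7 of the 10. These orders were not counted over all genes, so they are not shown to be particular to the feedback genes. The mean deviation of the 10 genes was -0.45, 0.12 and -0.18 in Htt siRNA arrays 1, 2 and 3, against -0.06, 0.28 and 0.29 in scramble arrays 1, 2 and 3. Htt siRNA replicate 2 thus lay between scramble replicate 1 and the other scramble arrays.

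Gene lists for other processes varied between these arrays in different ways. The S phase list (27 measured genes of DNA replication) deviated by -0.94, 0.29 and -0.67 in Htt siRNA arrays 1, 2 and 3, against 0.13, 0.71 and 0.49 in scramble arrays. Of these genes 22 were lower at an unadjusted p under 0.05, against 5.14% of all genes, with a median of -0.90, among them the licensing factor gene Cdc6 at -1.29 ± 0.33. The list of the integrated stress and unfolded protein response (24 genes) deviated by 0.62, -1.12 and 0.75 in Htt siRNA arrays, against 0.88, -0.74 and -0.39 in scramble arrays, so that Htt siRNA replicate 2 lay with scramble replicates 2 and 3, and scramble replicate 1 with the other Htt siRNA arrays. Terminal muscle differentiation genes (19 measured) deviated by 0.92, 0.13 and 0.77 in Htt siRNA arrays, against -0.52, -0.95 and -0.34 in scramble arrays, with no overlap. Of these, 17 were higher at an unadjusted p under 0.05, against 5.72% of all genes, with a median of 1.25, among them Myog, the myogenic factor myogenin, at 2.68 ± 0.44. Markers of several cell types also moved with the group. Of the fibroblast markers, 7 of 10 were higher with no overlap, against 10.1% of all genes, and 1 lower, against 5.91%. Their mean level was 5.12 to 5.29 in Htt siRNA arrays against 4.58 to 4.84 in scramble arrays. Of the myoblast markers, 5 of 10 were higher with no overlap and 0 lower, with means of 7.36 to 7.48 against 7.02 to 7.25. Means of the dim endothelial markers (2.30 to 2.33 against 2.19 to 2.23) and macrophage markers (2.57 to 2.64 against 2.54 to 2.56) did not overlap either. The macrophage markers were split, with 2 of 8 higher with no overlap, against 10.1% of all genes, and 1 lower, against 5.91%. The lower one was Cd68, at -0.39 ± 0.14. The means of adipocyte and of neuron and Schwann cell markers did overlap. In bulk RNA, fewer cells that express a gene and less of its RNA per cell cannot be told apart. The part of proliferation, stress, differentiation or cell make-up in the feedback genes' values was not tested. Htt did not follow this order, since replicate 2, at 44.4% of the scramble mean, was as low as replicates 1 and 3 (45.2% and 50.3%).

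**Figure D3:**
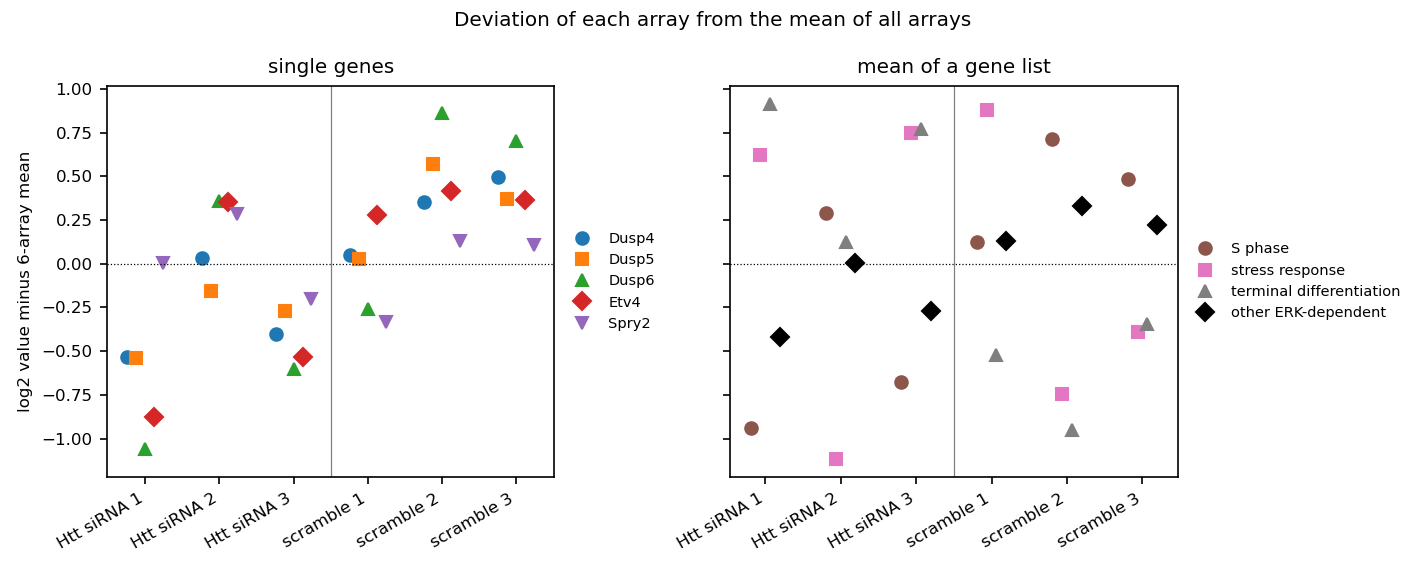
Deviation of each array from the mean of all 6 arrays in log2 units, for 5 feedback genes (left) and for the mean of 4 gene lists (right), with Htt siRNA arrays left of the grey line and scramble arrays right of it. Dusp6 runs from -1.06 in Htt siRNA replicate 1 to 0.86 in scramble replicate 2, and S phase from -0.94 to 0.71 in the same arrays.

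Leaving out Htt siRNA replicate 2 was the setting that changed calls among the feedback genes. Limma then called Dusp4 and Etv4 lower, 2 of the 10 genes, against 1.91% of all genes called lower and 0.528% called higher in that fit. Dusp5, at -0.72 ± 0.17, had an adjusted p of 0.0904 there, and Spred1, at -0.32 ± 0.13, one of 0.272. With Htt siRNA replicate 2 left out, 5 of the 10 genes were lower at an unadjusted p under 0.05, against 7.75% of all genes in that fit. Without scramble replicate 1, 0 of the 10 passed, with differences of -0.73 for Dusp4, -0.79 for Dusp5, -1.22 for Dusp6 and -0.74 for Etv4. The fit without an array rests on 2 arrays in one group and was not chosen over the fit with all 6.

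**Figure D4:**
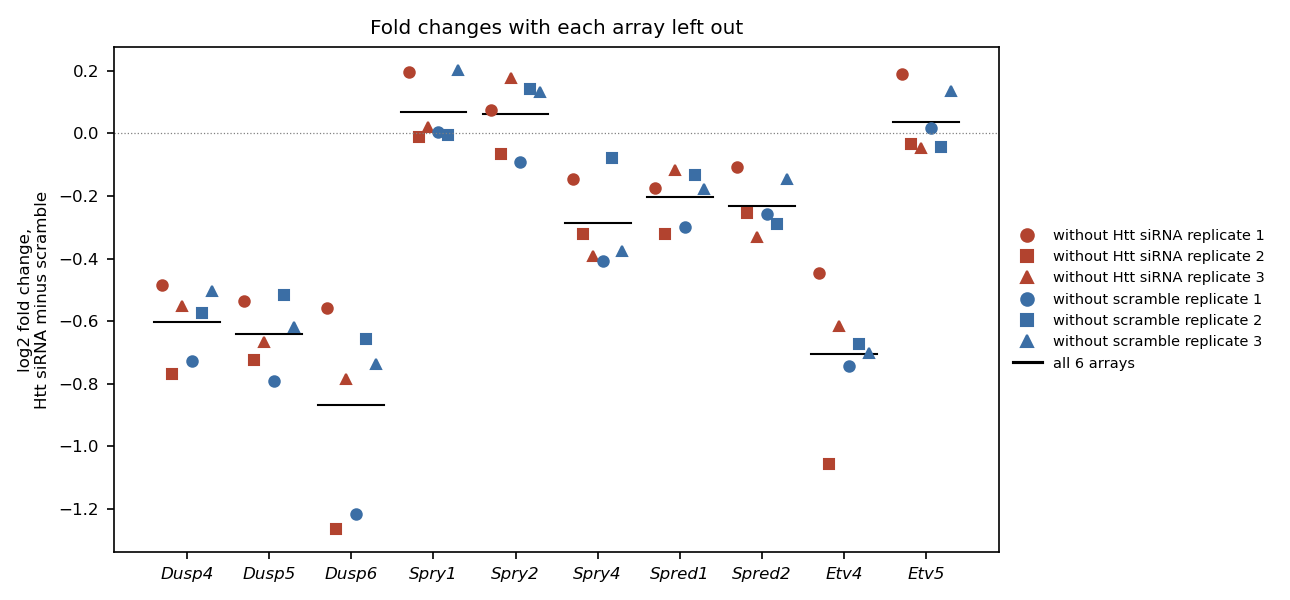
Log2 fold change of each feedback gene, Htt siRNA minus scramble, with each array left out in turn (points) and with all 6 arrays (black lines). Dusp4, Dusp5, Dusp6 and Etv4 stay below 0 in all 6 cases, with Etv4 between -1.06 and -0.44, while Spry1, Spry2 and Etv5 fall on either side of 0.

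Close relatives of the feedback genes were measured as well. Of 10 relatives, 4 were lower at an unadjusted p under 0.05 and 0 were higher, against 5.14% and 5.72% of all genes. The same 4 lay lower with no overlap between groups, against 5.91% of all genes, and the median difference was -0.21. Etv1, the third member of the PEA3 group of ETS factors with Etv4 and Etv5, stood at 4.20, 4.91 and 4.37 in Htt siRNA arrays, against 4.96, 5.45 and 5.21 in scramble arrays. All Htt siRNA arrays lay below all scramble arrays, replicate 2 by the least, and the difference was -0.71 ± 0.20 (adjusted p = 0.346 in limma; 0.0305 without Htt siRNA replicate 2). The other 3 were Dusp9, an ERK phosphatase of the same group as Dusp6, at -0.43 ± 0.16, Spred3 at -0.37 ± 0.14, and Dusp16, a phosphatase that prefers JNK, at -0.35 ± 0.13. Dusp1, the stress- and serum-induced nuclear phosphatase, differed by -0.23 ± 0.16, Dusp7 by -0.20 ± 0.15 and Dusp10, which acts on p38 and JNK, by -0.12 ± 0.14. Values closer to 0 were found for Spry3 (-0.09 ± 0.10), Dusp2 (0.05 ± 0.10) and Dusp8 (0.02 ± 0.27), the last with scramble arrays at 5.23, 3.97 and 4.46.

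Transcripts of the ERK cascade itself were counted in the same way. Of 26 listed adaptors, RAS regulators and kinases, 19 were measured, and the other 7 are not analysed here. Of these 19, 1 was lower and 0 were higher at an unadjusted p under 0.05, near the 5.14% of all genes that were lower, with a median difference of -0.06. The one gene was Braf, a RAF kinase, at 6.09, 6.14 and 5.92 in Htt siRNA arrays, against 6.68, 6.44 and 6.47 in scramble arrays. Its groups did not overlap and its difference was -0.48 ± 0.10 (SE; 71.6% of the scramble level; adjusted p = 0.267 in limma). Ptpn11, the phosphatase SHP2 that passes receptor signals to RAS, differed by -0.15 ± 0.08, and Elk1, an ETS factor that ERK phosphorylates, by 0.20 ± 0.10. Among 12 receptors that feed the cascade, 1 was lower and 0 were higher, against 5.14% and 5.72% of all genes. The one was Pdgfra at -0.26 ± 0.11, while the hepatocyte growth factor receptor Met differed by -0.36 ± 0.22 and Fgfr1 by -0.08 ± 0.13.

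Many other transcripts known to depend on ERK lay lower after Htt siRNA. Of 22 listed, 19 were measured and 3 are not analysed here. The list was chosen with earlier results of these data known. It also holds genes tied to proliferation, such as Ccnd1 and Hmga2, and the part of proliferation in its values was not tested. Of the 19, 9 were lower and 0 higher at an unadjusted p under 0.05, against 5.14% and 5.72% of all genes, and 0 passed the adjusted threshold. In 7, all Htt siRNA arrays lay below all scramble arrays, against 5.91%, and 16 differences were negative, against 41.8%, with a median of -0.48. The largest difference was that of Ereg, which encodes the growth factor epiregulin, at 5.73, 6.34 and 5.51 in Htt siRNA arrays, against 7.21, 7.51 and 6.64 in scramble arrays. Each Htt siRNA array lay below each scramble array, and the difference was -1.26 ± 0.27 (41.8% of the scramble level; adjusted p = 0.264 in limma). Hmga2, a chromatin protein of proliferating progenitors, differed by -1.04 ± 0.24 and Ier3, an immediate early gene, by -0.71 ± 0.17, both with an adjusted p of 0.299.

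Among genes chosen after their values were seen, Ccnd1, the cyclin that ERK induces to start the cell cycle, stood at 6.83, 7.86 and 6.77 in Htt siRNA arrays, against 7.50, 8.39 and 8.31 in scramble arrays. As for Dusp6, Htt siRNA replicate 2 lay above scramble replicate 1, and the difference was -0.91 ± 0.34 (adjusted p = 0.416 in limma). Hbegf, another ligand of the epidermal growth factor receptor family, differed by -0.88 ± 0.32, Phlda1 by -0.62 ± 0.20 with no overlap, and the early growth response genes Egr1 and Egr3 by -0.60 ± 0.26 and -0.46 ± 0.13. The 3 positive differences were those of Fos (0.18 ± 0.12), Vgf (0.17 ± 0.11) and Mcl1 (0.04 ± 0.13), and Myc differed by -0.13 ± 0.41. The number lower at an unadjusted p under 0.05 was 5 when Htt siRNA replicate 1 was left out, beside 687 of 22180 genes. It was also 5 when scramble replicate 2 was left out, beside 821 of 22180, and the highest count with a single array left out was 12. Without Htt siRNA replicate 2, 6 of the 19 passed the adjusted threshold, against 1.91% of all genes called lower and 0.528% called higher.

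**Figure D5:**
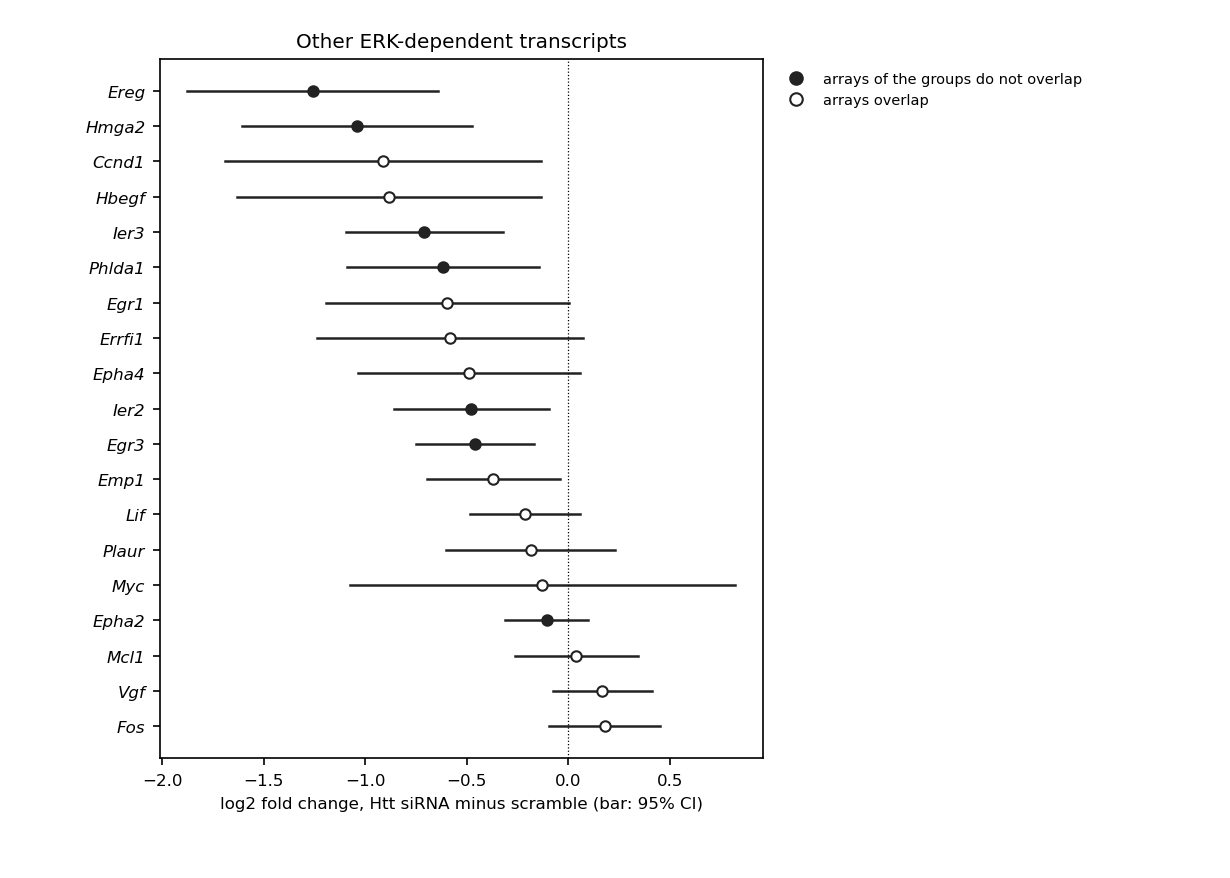
Log2 fold changes, Htt siRNA minus scramble, with 95% confidence intervals from limma, for 19 other ERK-dependent transcripts, ordered by value, where filled points mark genes whose groups do not overlap. Ereg at -1.26 and Hmga2 at -1.04 lie farthest to the left, and 16 of the 19 lie below 0.

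The genes whose profiles over the 6 arrays were most like those of the 4 most variable feedback genes were sought among 11090 genes above the median level, by the Euclidean distance between log2 profiles centred on their means. Nearest to Dusp6 were Gmnn, the inhibitor of replication licensing geminin (distance 0.19), the mitotic kinase gene Aurkb (0.29) and Hbegf (0.31). For Etv4 they were the cytokinesis genes Prc1 (0.14) and Anln (0.16) and the helicase gene Ddx11 (0.16). For Dusp4 they were Cenpp (0.13) and Zwint (0.14), of the kinetochore, and the centrosomal gene Pcnt (0.17). Dusp5 lay nearest to Lgr6 (0.22), Mdm1 (0.23) and Arrdc3 (0.24). Gmnn stood at 3.38, 4.62 and 3.68 in Htt siRNA arrays, against 4.21, 5.26 and 5.04 in scramble arrays, the same order of arrays as Dusp6. The distances describe 6 arrays that share their processing, and no test was made of them.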

How the data were processed

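RNA of 6 C2C12 samples was measured on Affymetrix arrays, 3 given Htt siRNA and 3 scramble siRNA, grouped by their titles. The authors deposited log2 values for 41345 probe sets, and the submitters' processing notes name RMA and affy, without versions. The array's genome build is not given in the sources used here. Precision is limited by the number of arrays, and the table holds no detection calls. Gene names came from the platform annotation: 23521 probe sets had 1 symbol, 1814 several and 16010 none, which gave 22180 genes by brightest probe set.

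Group differences come from limma 3.58.1 under R 4.3.3 (lmFit and eBayes, group as the only term, two-sided), with no filter on dim genes, after the code was checked on simulated data. Lists are described by counts and medians. The 10 genes, the other lists and the rule for named genes (Htt, the 10 genes, their relatives and, per list, the 3 genes with the smallest p above the median level) were chosen with earlier results of these data known. Promoter sequences are RefSeq's, GRCm38.p6. Motifs were sought in the 250 bases before each start. Alternatives left out each array, blocked by replicate number, weighted arrays, repeated quantile normalization, centred arrays, dropped dim genes, averaged probe sets, let the prior follow intensity or allowed probe sets with several symbols. The dimmer probe sets of Dusp6 and Etv5 were added after the data were seen. Tables and plots used Python 3.11.15, pandas 2.3.3 and matplotlib 3.10.9.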

Additional observations from a re-analysis of the deposited data

How the results depend on the processing

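Dusp4, Dusp5, Dusp6, Etv4, Spry4, Spred1 and Spred2 kept a negative difference under every alternative run, 14 for each and 15 for Dusp6. Not all of these could change a sign. The replicate block, the intensity trend and dropping dim genes alter only the error of a difference. Averaging probe sets leaves the difference of a gene with a single probe set as it is. Allowing several symbols changed none of these differences. Leaving out 1 array at a time gave 0 to 2 feedback genes called lower and 2 to 5 lower at an unadjusted p under 0.05, the upper values without Htt siRNA replicate 2. Over all 22180 genes, 0 to 540 were called in these fits and 687 to 1720 were lower at an unadjusted p under 0.05. Without 1 array, Spry1 ranged from -0.013 to 0.20, Spry2 from -0.091 to 0.18 and Etv5 from -0.048 to 0.19. Array weights turned Spry1 to -0.018, Spry2 to -0.0054 and Etv5 to -0.038. Etv5 was -0.14 as the mean of its probe sets and -0.31 on its dimmer probe set, which was chosen after seeing the data. The cause of these turns was not tested.

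The labels number replicates 1 to 3 in both groups, and the numbers matched the arrays only in part. Deviations from group means correlated across genes with r = 0.35, 0.36 and 0.0064 for pairs 1, 2 and 3. Replicates 1 and 2 of each group were most like their own number in the other group. Htt siRNA replicate 3 was most like scramble replicate 1 (r = 0.22), and scramble replicate 3 most like Htt siRNA replicate 2 (r = 0.14). With the replicate block, limma called 98 genes and 0 of the 10 feedback genes, 3 other ERK-dependent transcripts, 2 S phase genes and 11 differentiation genes. Dusp5 was at -0.64 ± 0.09 in that fit (adjusted p = 0.0522 in limma) and Dusp6 at -0.87 ± 0.15 (0.0765). The adjusted p was 0.106 for Dusp4 and 0.19 for Etv4. All genes called numbered 1 with array weights, 3 with repeated quantile normalization, 3 with centred arrays, 3 above the median level, 2 with an intensity trend and 7 with probe sets of several symbols allowed.

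Without 1 array, other ERK-dependent transcripts ranged from 5 to 12 lower at an unadjusted p under 0.05 and 0 to 6 called, the relatives from 1 to 4 and 0 to 1, S phase from 0 to 19 called and differentiation from 0 to 14 called. The whole table moved too, from 687 to 1720 of 22180 genes lower at an unadjusted p under 0.05 and from 0 to 540 called. The ERK cascade median ranged from -0.083 to 0.0099. Htt passed the threshold with the replicate block (-1.10), array weights (-1.11), repeated quantile normalization (-1.04), centred arrays (-1.13), above the median level (-1.10) and with several symbols allowed (-1.10), and ranged from -1.16 to -1.06 without 1 array, passing only without Htt siRNA replicate 2 (adjusted p = 0.00778 in limma). After centring, 911 genes were higher and 1465 lower at an unadjusted p under 0.05, beside 1269 and 1140. Dim probe sets (Spry1, Spry4, Etv5) limit what their differences can show.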
